A study of Arabidopsis thaliana with 6 samples.

Results

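The enzymes that turn phenylalanine into monolignols, the alcohol building blocks of lignin, were followed through their messenger RNA in hypocotyl callus of Arabidopsis thaliana. The 10 genes were taken by locus code from a table of 31305 loci, namely PAL1, PAL2, PAL4, C4H, 4CL1, 4CL2, CCR1, CAD5, OMT1 and FAH1 (also called F5H), and all 10 are in the table. Callus is a mass of unorganised cells, induced here from cut tissue by plant hormones in the medium. Hypocotyls cut from 1-week-old seedlings were kept for 7 days on callus-inducing medium before RNA was extracted. The wild type Col-0 gave 3 libraries and another 3 are labelled rap2.12-2, described in the series as biological replicates, and no other treatment or allele is given. The name of the second genotype points to RAP2.12, an ethylene response factor of group VII, unstable in the presence of oxygen. The labels do not say what the rap2.12-2 allele carries. Values are TPM, a measure of transcript abundance divided by transcript length and library total, so levels can be compared between genes while the sequencing depth behind them is unknown.

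Phenylalanine ammonia-lyase (PAL) opens the pathway by removing ammonia from phenylalanine. Cinnamate 4-hydroxylase (C4H) and 4-coumarate:CoA ligase (4CL) then give 4-coumaroyl-CoA, from which flavonoids, coumarins, sinapate esters and lignin all branch. On the lignin side, ring hydroxylation and methylation are followed by 2 reductions, by cinnamoyl-CoA reductase (CCR) and cinnamyl alcohol dehydrogenase (CAD). Ferulate 5-hydroxylase (FAH1) and the caffeate O-methyltransferase OMT1 lead to the syringyl type of lignin unit. In Arabidopsis these enzymes are best known from xylem vessels and fibres, and PAL genes also respond to wounding and pathogens.

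The libraries differed among themselves. Listed values of Col-0 replicate 1 summed to 845341 TPM, 15.5% below the total to which TPM is scaled, against 0.728 to 1.55% below it in the other 5, and its organelle genes summed to 12005 TPM against 157 to 537. Between 20913 and 21369 loci were above 0. The 3 libraries with most such loci were Col-0 replicate 2 and the libraries labelled rap2.12-2 replicates 2 and 3. RAP2.12 transcript stood at 123, 140.0 and 161 TPM for Col-0 against 359.6, 363 and 465 TPM for the other genotype, 2.80 times as high (log2 fold change 1.48, SE 0.17, limma adjusted p = 0.026). The groups did not overlap, but the call was lost without Col-0 replicate 1 or 3 or without replicate 2 or 3 of the other genotype, at limma adjusted p of 0.17, 0.19, 0.068 and 0.058. Directions below therefore belong to the labels and are not those of a shown loss of RAP2.12. Vessel markers were present, with XCP1, a vessel protease gene, at 80.6 to 139 TPM. The fibre regulators NST1 and SND1 stayed at or under 0.61 TPM and the Casparian strip gene CASP1 at or under 0.43 TPM. Other endodermis and suberin markers were higher, with MYB36 at 9.91 to 19.25 TPM, ASFT at 5.10 to 16.8 TPM and CYP86A1 at 3.19 to 8.33 TPM. GPAT5 was at 0.70 to 2.65 TPM. Root-founder genes that mark callus were also present, with PLT1 at 85.0 to 131 TPM and WOX5 at 25.8 to 29.5 TPM, while LBD29 stayed at or under 0.58 TPM. In bulk tissue, fewer cells of a type and less RNA per cell cannot be told apart.

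Levels spanned more than 2 orders of magnitude along the pathway. C4H stood highest at a mean of 298 TPM over the 6 libraries, followed by CCR1 at 231, OMT1 at 202 and CAD5 at 107 TPM. Next came 4CL1 at 61.0, 4CL2 at 37.6, PAL1 at 33.9, PAL2 at 25.5 and FAH1 at 21.8 TPM, and PAL4 was last at 1.25 TPM. The ranges of C4H and CCR1 did not meet, nor did those of OMT1 and CAD5, of CAD5 and 4CL1, or of FAH1 and PAL4. CCR1 lay above OMT1 and 4CL1 above 4CL2 in all 6 libraries although their ranges met. Between PAL2 and FAH1 the order changed, with PAL2 higher in 3 of 6 libraries. In Col-0, C4H stood above 97.6% and PAL4 above 3.33% of the 18629 genes kept for testing, those averaging 1 TPM or more.

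**Figure D1:**
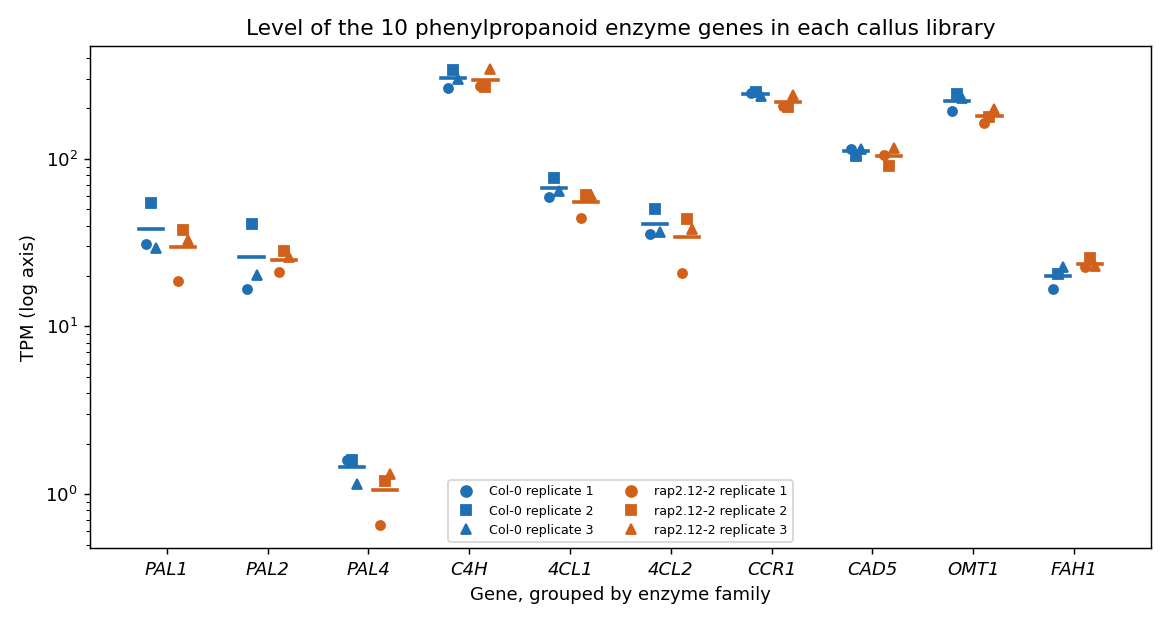
TPM on a log axis for the 10 genes, with Col-0 libraries in blue, libraries labelled rap2.12-2 in orange, a symbol for each replicate number and a line at each group mean. C4H, CCR1, OMT1 and CAD5 form the upper band, PAL4 lies near 1 TPM, and in all 10 genes the 2 groups overlap.

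Paralogues at the first steps resemble each other closely, which matters for how reads are divided between them. The coding sequences of PAL1 and PAL2 were identical at 84.1% of 2145 aligned bases and shared a run of 80 identical bases. For 4CL1 and 4CL2 the figures were 81.6% of 1655 bases and a run of 35 bases. The most similar 90 aligned coding bases within an exon are shown for both pairs, from the TAIR10.1 genome in coding direction, with the bases that differ in capitals. PAL1 is read from chr2:15558520-15558609 and PAL2 from chr3:19745174-19745263, both on the minus strand, and they differ at 1 base.
PAL1: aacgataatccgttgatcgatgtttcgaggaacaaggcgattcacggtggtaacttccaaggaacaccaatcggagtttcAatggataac
PAL2: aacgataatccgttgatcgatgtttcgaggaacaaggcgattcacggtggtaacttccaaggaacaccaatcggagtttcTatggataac
4CL1 is read from chr1:19159031-19159120 and 4CL2 from chr3:7454527-7454616, again on the minus strand, and they differ at 6 bases.
4CL1: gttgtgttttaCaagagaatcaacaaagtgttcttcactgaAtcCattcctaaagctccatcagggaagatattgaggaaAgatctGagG
4CL2: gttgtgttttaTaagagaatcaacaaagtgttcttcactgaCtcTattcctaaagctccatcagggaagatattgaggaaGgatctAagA
A read that falls wholly inside a shared run cannot be assigned by sequence alone, and the estimate then rests on the rest of the gene. No alignment of 100 bases or longer between any of the 10 transcripts and the rest of the genome reached 95% identity as a whole. The best alignment of PAL1, with PAL2, ran over 1769 bases at 85.5%. Closer stretches inside a longer alignment, such as the PAL1 and PAL2 bases shown above, were not counted by this search.

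Upstream of these genes a sequence element of the AC type was searched for, since AC elements are binding sites of MYB factors known to act on lignin genes. The letters ACCTACC (AC-I), ACCAACC (AC-II) and ACCTAAC (AC-III) were looked for on both strands of the 250 bases before each annotated gene start, and no match overlapped another. At least 1 of the 3 was present for 3 of the 10 genes and for 8 of 23 when 13 further core enzyme genes were added, against 6.12% of 27443 protein-coding genes. All 3 genes, 4CL2, CCR1 and CAD5, carried AC-II, which 2.69% of all genes carried, and so did HCT and CYP98A3 of the further genes. The 30 bases round each AC-II match are shown on the gene's strand, TAIR10.1, with the 7 matching letters in capitals.
4CL2 (chr3:7457526-7457555, minus strand): tagagtagctcACCAACCcctacatgaact
4CL2 (chr3:7457417-7457446, minus strand): aataacatttcACCAACCacaaattctttt
CCR1 (chr1:5478573-5478602, plus strand): tgtttcttcttcttccACCAACCcctcttt
CAD5 (chr4:16389160-16389189, minus strand): attgtttgttcACCAACCcccgtggaccct
HCT (chr5:19838307-19838336, minus strand): ggaacgggtttACCAACCccggatagaaaa
CYP98A3 (chr2:17060656-17060685, minus strand): taaatcggttcACCAACCccctccctaata
In each of the 5 genes the AC-II letters continued with CC in a window. The longer form ACCAACCCC, chosen after these windows were seen, occurred in 32 of the 27443 windows (0.117%), and these 5 genes are among the 32. The 250-base windows of 4CL2 and CCR1 overlap the annotated neighbours AT3G21250 and AT1G15940. A match describes letters only, and the annotated start may differ from the start used in callus.

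No enzyme gene differed between the genotypes by more than the spread between libraries. Of the 10, limma called 0 at an adjusted p under 0.05, where 0.0698% of all kept genes were called, and 0 reached an unadjusted p under 0.05, where 6.84% of kept genes did. The 2 groups overlapped in all 10, where 12.7% of kept genes had groups that did not. Of the log2 fold changes, 8 were negative and 2 positive with a median of -0.22, against 53.3% negative and a median of -0.02 over all kept genes. With each of the 6 libraries left out in turn, or both replicates 1, the 10 genes still gave 0 calls. The median was -0.08 without the library labelled rap2.12-2 replicate 1, where that of all kept genes was 0.06. This library holds the lowest value of 5 of the 10 genes and of 43.0% of all kept genes.

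The PAL genes varied most from library to library. PAL1 (AT2G37040, chromosome 2, 15557367 to 15560755, minus strand), a main lyase of the stem, measured 31.0, 54.3 and 29.2 TPM across Col-0, and 18.6, 37.7 and 32.9 TPM across those labelled rap2.12-2. PAL2 (AT3G53260, chromosome 3, 19744018 to 19747114, minus strand), its closest relative, measured 16.7, 40.8 and 20.3 TPM and then 21.3, 28.1 and 25.8 TPM. In both genes Col-0 replicate 2 stood above the other 5 libraries. For PAL1 the library labelled rap2.12-2 replicate 1 lay below all others, while for PAL2 the second group lay inside the range of Col-0. The log2 fold change was -0.35 for PAL1 (95% interval -1.06 to 0.36, limma adjusted p = 0.87) and 0.05 for PAL2 (-0.64 to 0.74, limma adjusted p = 0.98). These intervals are wide, and that of PAL1 reaches past a halving of the level on this scale. PAL4 (AT3G10340, chromosome 3, 3203988 to 3208135, plus strand) measured 1.60, 1.60 and 1.15 TPM across Col-0, and 0.65, 1.19 and 1.32 TPM in the other group, so it contributed little to the step. Without Col-0 replicate 2 the change of PAL1 was -0.07 and that of PAL2 0.42, and leaving out the lowest library instead, that of PAL1 was -0.06.

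C4H was the steadiest gene of the early pathway. This cytochrome P450 gene (AT2G30490, chromosome 2, 12993625 to 12996012, minus strand), the only one for its step, measured 266, 340.2 and 298 TPM across Col-0, and 270.3, 269 and 345 TPM across those labelled rap2.12-2. The groups covered nearly the same range, and the log2 fold change was -0.03 (95% interval -0.41 to 0.34, limma adjusted p = 0.97). Among 15341 other genes averaging 5 TPM or more, the 5 whose profile over the 6 libraries came closest to that of C4H were AT3G48070, LSU2, AT2G25920, RHA1 and AT2G36950, at root mean square differences of 0.0228 to 0.0503 log2 units. The nearest gene of the pathway was CYP98A3 at 0.122, rank 552, followed by CCR1 at 0.129, rank 798. PAL1 was at 0.382, rank 13033, and 4CL1, of the step after C4H, at 0.184, rank 3838. The difference is not scaled by how much a gene varies. A gene that varies widely therefore lies far from C4H whatever its pattern, and a steady gene can lie near without sharing it.

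The ligase genes resembled PAL1 in their low value in a single library. 4CL1 (AT1G51680, chromosome 1, 19158746 to 19161737, minus strand), the main ligase of lignin formation, measured 59.0, 77.3 and 63.9 TPM across Col-0, and 44.2, 60.8 and 60.8 TPM across those labelled rap2.12-2. 4CL2 (AT3G21240, chromosome 3, 7454269 to 7457404, minus strand) measured 35.7, 50.3 and 36.8 TPM and then 20.8, 44.0 and 38.3 TPM. The library labelled rap2.12-2 replicate 1 was lowest and Col-0 replicate 2 highest in both. Over all kept genes the first was lowest in 43.0% and the second highest in 26.6%. Log2 fold changes were -0.27 for 4CL1 (95% interval -0.69 to 0.14, limma adjusted p = 0.85) and -0.30 for 4CL2 (-0.93 to 0.34, limma adjusted p = 0.87). Without that lowest library they were -0.12 and 0.02. 4CL1 lies 973 kb from RAP2.12 and overlaps AT1G51670 on the opposite strand. Whether counting kept strand is not given in the sources used here, so reads from the overlap cannot be assigned.

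**Figure D2:**
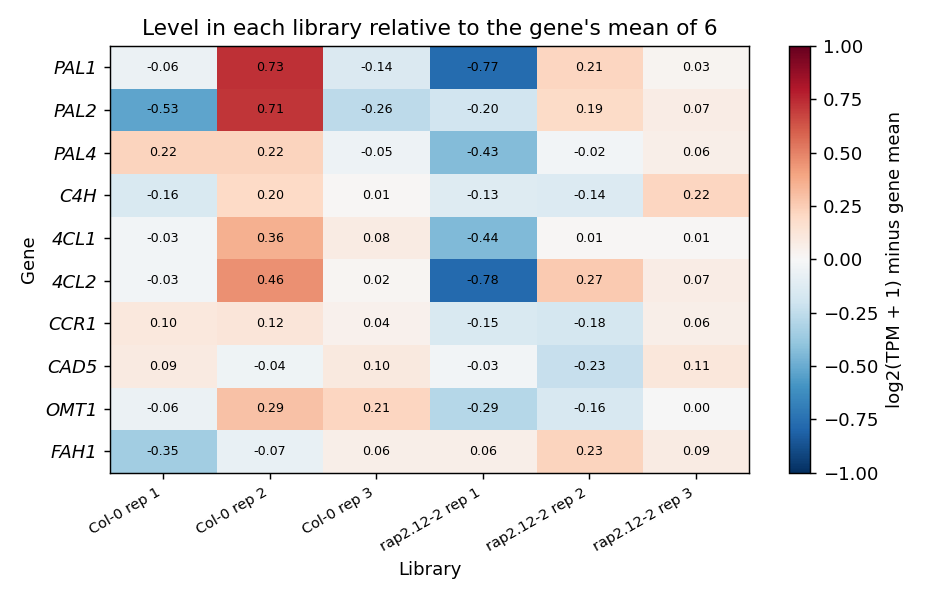
Each cell gives a gene's log2(TPM + 1) in a library minus its mean over the 6 libraries, red above and blue below. PAL1, PAL2, 4CL1 and 4CL2 are highest in Col-0 replicate 2, PAL1 and 4CL2 reach -0.77 and -0.78 in the library labelled rap2.12-2 replicate 1, and C4H, CCR1 and CAD5 stay within 0.23 of their means.

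The reductases of the late pathway were measured most tightly. CCR1 (AT1G15950, chromosome 1, 5478603 to 5482180, plus strand), which commits intermediates to monolignols, measured 248, 251 and 237 TPM across Col-0, and 208, 204 and 240.2 TPM across those labelled rap2.12-2. Only replicate 3 of the second group reached the range of Col-0, and the log2 fold change was -0.18 (95% interval -0.48 to 0.13, limma adjusted p = 0.86). CAD5 (AT4G34230, chromosome 4, 16386631 to 16388940, minus strand), a main alcohol dehydrogenase of lignin formation, measured 114, 104 and 115 TPM across Col-0, and 105, 91.2 and 116 TPM in the other group. Its groups covered each other, with a log2 fold change of -0.10 (95% interval -0.43 to 0.24, limma adjusted p = 0.91). CCR1 overlaps AT1G05213 and AT1G15960 on the opposite strand, with the same limit as for 4CL1.

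At the syringyl branch the 2 genes had changes of opposite sign. OMT1 (AT5G54160, chromosome 5, 21981902 to 21984399, plus strand), the methyltransferase, measured 192, 245 and 232 TPM across Col-0, and 164, 178 and 199 TPM across those labelled rap2.12-2. FAH1 (AT4G36220, chromosome 4, 17137313 to 17139777, minus strand), the hydroxylase, measured 16.8, 20.6 and 22.6 TPM and then 22.5, 25.5 and 23.0 TPM. Each pair of groups met by a single library on either side. The log2 fold change was -0.30 for OMT1 (95% interval -0.65 to 0.05, limma adjusted p = 0.80), the smallest p of the 10 genes, and 0.24 for FAH1 (-0.15 to 0.64, limma adjusted p = 0.85). The ratio of FAH1 to OMT1, which does not depend on how a library was scaled, was 0.0874, 0.0839 and 0.0973 across Col-0, and 0.138, 0.143 and 0.116 across those labelled rap2.12-2. The groups did not overlap in this ratio, with means of 0.0895 ± 0.00694 and 0.132 ± 0.0144 (SD, n = 3 each), and the second mean was 1.48 times the first. By exact permutation (two-sided) p was 0.10, which 3 against 3 cannot go below, and 0.25 after adjustment over the 5 shares and ratios tested, so the difference did not pass.

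**Figure D3:**
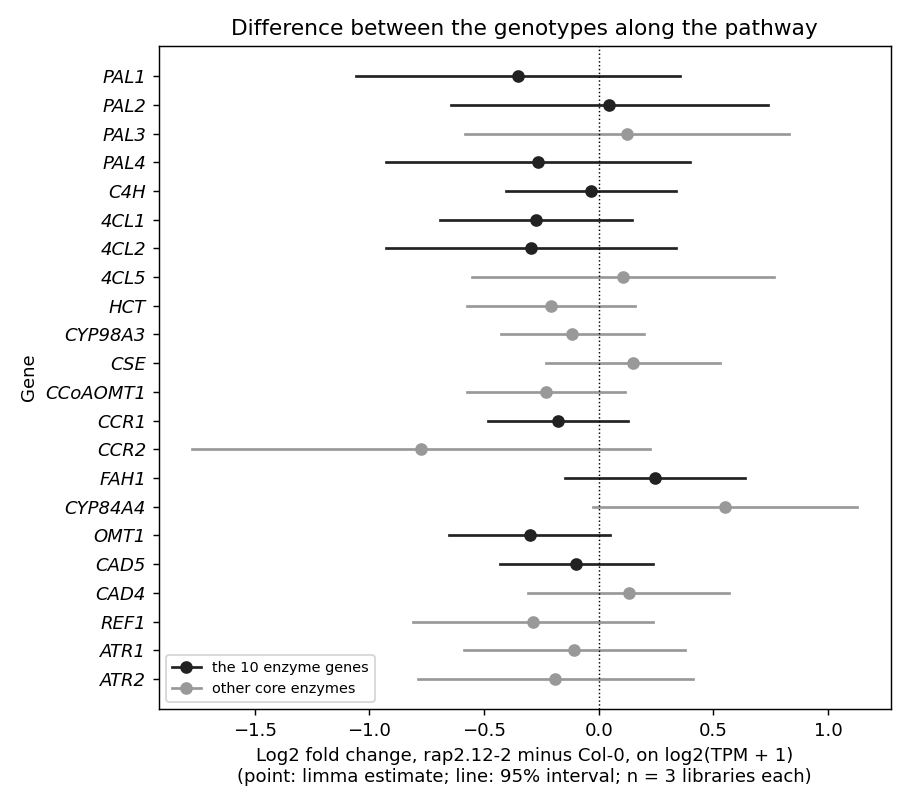
Log2 fold change, rap2.12-2 label against Col-0 (points), with limma's 95% interval (lines) for the 10 enzyme genes in black and 12 other core enzyme genes in grey, in pathway order. All 22 intervals include 0, and those of C4H, CCR1 and CAD5 are among the narrowest.

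Within the enzyme families as summed here, with CAD limited to CAD5 and CAD4, a single gene or a pair supplied nearly all transcript. PAL1 and PAL2 held 57.6 ± 3.49 and 37.9 ± 4.34% of summed PAL transcript in Col-0, and 51.0 ± 5.35 and 44.7 ± 5.80% across those labelled rap2.12-2 (SD, n = 3 each). PAL3 and PAL4 were minor, each at most 3.45% in every library. The PAL1 share was 61.7, 55.6 and 55.7% across Col-0, and 44.9, 54.9 and 53.3% in the other group. Those groups did not overlap, the nearest values being 54.9 and 55.6%, and by exact permutation (two-sided) p was 0.10, the floor of the design, and 0.25 adjusted. Because PAL1 and PAL2 share the run shown above, their split depends on how reads were divided. Without the lowest of these libraries the difference in PAL1 share was -3.54 percentage points, against -6.60 with it.

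The other families showed no such separation. 4CL1 held 57.4 ± 0.984% of summed 4CL transcript across Col-0, and 56.4 ± 5.43% across those labelled rap2.12-2 (SD, n = 3 each, exact permutation p = 0.70). 4CL5 followed 4CL2 with 7.58 and 9.69%, and 4CL3, a ligase known from the flavonoid branch, was listed at 0 in 5 libraries and at 0.24 TPM in 1. CCR1 held 94.4 ± 3.28 and 96.6 ± 1.41% of CCR transcript (SD, n = 3 each, exact permutation p = 0.60). CAD5 held 89.7 ± 1.91 and 88.1 ± 2.28% of the CAD5 and CAD4 sum (SD, n = 3 each, exact permutation p = 0.40). That sum leaves out the CAD-like genes, of which CAD1 and CAD9 averaged 54.6 and 15.5 TPM in Col-0, against 12.7 TPM for CAD4.

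**Figure D4:**
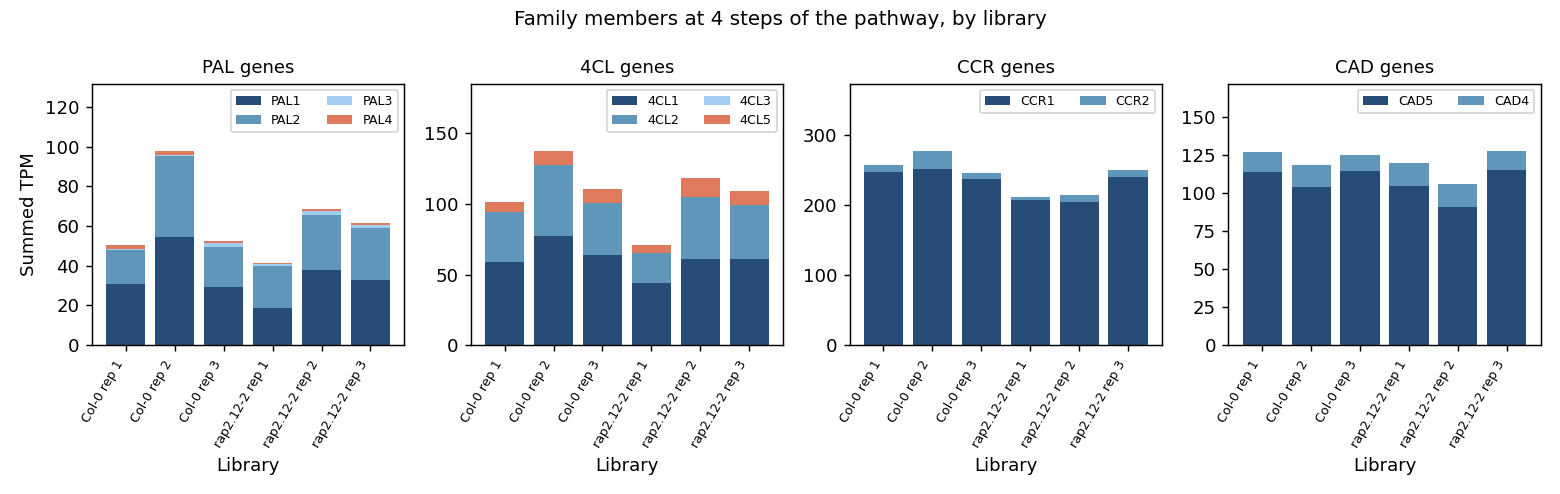
Summed TPM of the PAL, 4CL and CCR genes and of CAD5 with CAD4 (CAD) in each library, stacked by gene. PAL sums run from 41.4 to 97.6 TPM and 4CL sums from 71.1 to 137 TPM, whereas CCR and CAD sums vary less, and PAL1 with PAL2, CCR1 and CAD5 make up most of their columns.

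PAL sums followed a division of the libraries that crosses the genotypes. They were 97.6, 68.7 and 61.8 TPM in Col-0 replicate 2 and the libraries labelled rap2.12-2 replicates 2 and 3, and 50.3, 52.4 and 41.4 TPM in Col-0 replicates 1 and 3 and the library labelled rap2.12-2 replicate 1. The first 3 are also the libraries with most loci above 0. MYB15, a MYB factor that activates lignin genes in immunity, showed the same division, at 91.7, 73.9 and 53.1 TPM in the first 3 and 5.67, 6.76 and 6.18 TPM in the others. It was singled out after its values were seen, and its part in the PAL levels was not tested. With the 2 sets of libraries as a block, a fit chosen after seeing the data, limma called 4.57% of kept genes and 1 of the 10 enzyme genes. That gene was PAL1, with a log2 fold change of -0.64 (SE 0.17, limma adjusted p = 0.044). Within the sets, which hold 1 library of one genotype against 2 of the other, its differences were -0.61 and -0.67. Under the same block 4CL2 had a change of -0.53 (limma adjusted p = 0.12) and 4CL1 of -0.40 (limma adjusted p = 0.20), and C4H of -0.11.

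The 13 other core enzymes gave no call either. None of the 12 that passed the filter was called by limma, 0 reached an unadjusted p under 0.05, and log2 fold changes ran from -0.78 to 0.55 with a median of -0.11. That median was -0.04 without Col-0 replicate 2 and turned to 0.06 without the library labelled rap2.12-2 replicate 1. CCoAOMT1, which methylates caffeoyl-CoA, was the most abundant enzyme gene of the pathway, at 555 ± 78.6 TPM across Col-0, and 472 ± 29.5 TPM across those labelled rap2.12-2 (SD, n = 3 each, limma adjusted p = 0.85). HCT, the shikimate transferase, measured 109 and 94.7 TPM as group means, and CYP98A3, the coumaroyl shikimate hydroxylase, 89.8 and 83.0 TPM. CSE, the caffeoyl shikimate esterase, measured 112 and 125 TPM and lies 482 kb from RAP2.12. The P450 reductase genes ATR1 and ATR2, which supply electrons to C4H and its kin, measured 134 and 126 TPM and 67.2 and 60.2 TPM.

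Among the less expressed paralogues, CCR2 and CYP84A4 had the widest differences without passing the test. CCR2, a reductase gene known from pathogen response, measured 9.42, 25.8 and 9.01 TPM across Col-0, and 3.89, 9.70 and 9.67 TPM in the other group, a log2 fold change of -0.78 (SE 0.44, limma adjusted p = 0.83). Col-0 replicate 2 stood far above the rest, and the change without it was -0.31. Under the block for the 2 sets of libraries, chosen after the data were seen, CCR2 was called at -1.20 (limma adjusted p = 0.0013). That fit called 4.57% of kept genes. Within the sets the CCR2 difference was -1.33 where Col-0 had only replicate 2. It was -1.06 where the rap2.12-2 label had only replicate 1. CYP84A4, a relative of FAH1 that acts in the synthesis of pyrones rather than lignin, measured 1.96 ± 0.502 TPM and then 3.30 ± 0.391 TPM (SD, n = 3 each). Its groups did not overlap, giving a log2 fold change of 0.55 (SE 0.25, limma adjusted p = 0.75). PAL3, 4CL5, CAD4 and REF1, the aldehyde dehydrogenase of ferulate and sinapate synthesis, had log2 fold changes of 0.12, 0.10, 0.13 and -0.29. With 1 library left out, PAL3 ranged from 0.026 to 0.30, 4CL5 from -0.13 to 0.38, CAD4 from 0.0075 to 0.23 and REF1 from -0.46 to -0.060.

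Upstream, no gene supplying phenylalanine or methyl groups was called without the block for the 2 sets of libraries. Of 20 genes of the shikimate and phenylalanine route, limma called 0, and 0 higher and 1 lower reached an unadjusted p under 0.05 (median log2 fold change 0.05, and -0.03 to 0.10 over the alternatives). DHS2, a gene for the first enzyme of the shikimate route, was that 1, at 35.4 ± 3.63 and 26.8 ± 2.28 TPM (SD, n = 3 each, limma adjusted p = 0.69), and its groups did not overlap. DHS3 was the most abundant of them at 168 and 146 TPM, while SK1, a shikimate kinase gene, measured 19.7 and 14.7 TPM and CM3, a chorismate mutase gene, 18.9 and 22.8 TPM. ADT5 and ADT4, for arogenate dehydratases of the last step to phenylalanine, had log2 fold changes of -0.64 and -0.46 (limma adjusted p = 0.87 and 0.86). With the block, chosen after the data were seen, they were called at -1.14 and -0.77 (limma adjusted p = 0.0006 and 0.028). Of 8 genes of the S-adenosylmethionine cycle, which serves OMT1 and CCoAOMT1, limma called 0 and 0 reached an unadjusted p under 0.05. HOG1, the main adenosylhomocysteinase gene, stood at 2255 and 2244 TPM, and SAHH2, SAM2 and ADK2 had log2 fold changes of 0.22, 0.12 and 0.11.

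No gene of lignin polymerisation and no regulator passed the test. Of 9 tested genes of lignin polymerisation limma called 0, with 1 higher and 1 lower with unadjusted p under 0.05. LAC11, a laccase gene of lignin polymerisation, measured 16.6 ± 2.55 and 24.1 ± 4.79 TPM, and the peroxidase gene PRX25 14.9 ± 3.05 and 10.15 ± 0.983 TPM (SD, n = 3 each, limma adjusted p = 0.68 and 0.66). PRX17 was the most abundant at 183 and 175 TPM, and PRX52 measured 11.2 and 7.53 TPM. Of 17 tested regulators limma called 0, with 0 higher and 2 lower with unadjusted p under 0.05. These 2 were MYB63, a direct activator of lignin genes, at 11.1 ± 0.831 and 7.50 ± 1.97 TPM, and MYB43, at 10.2 ± 1.04 and 7.21 ± 1.02 TPM (SD, n = 3 each, limma adjusted p = 0.70 and 0.72). MYB46, a master regulator of secondary walls, measured 5.27 and 7.12 TPM, and its groups did not overlap either. KFB01, whose F-box protein marks PAL for degradation, measured 65.1 and 70.6 TPM.

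Vessel markers lay on the other side of 0 from most enzyme genes. Of 8 tested, 7 had positive log2 fold changes and 1 a negative one, with a median of 0.37 (0.20 with replicate 3 of the second genotype left out, 0.23 with the block). Of the 8, 3 reached an unadjusted p under 0.05, where 6.84% of all kept genes did. These 3, XCP1, XCP2 and IRX9, were not called (limma adjusted p = 0.46, 0.39 and 0.70). The summed level of the 8 markers was 182 to 229 TPM across Col-0, and 278 to 310.3 TPM across those labelled rap2.12-2, so it did not overlap. The summed level of the 10 enzyme genes was 980.0 to 1185 and 875 to 1082 TPM and did. XCP1 and XCP2 made up most of the vessel sum, and the other 6 markers summed to 47.5, 58.7 and 63.1 TPM for Col-0 against 54.5, 79.7 and 84.4 TPM, which overlap. The difference between the 2 lists was not tested. Of the 4 tested endodermis and suberin markers limma called 0, with 0 with unadjusted p under 0.05 and a median of -0.41, which was -0.18 when either Col-0 replicate 2 or replicate 1 of the other genotype was left out. CYP86A1, ASFT and GPAT5, all of suberin synthesis, had log2 fold changes of -0.51, -0.44 and -0.38, and MYB36 of 0.24. ASFT was at -0.15 without Col-0 replicate 2, and MYB36 at 0.050 without Col-0 replicate 1.

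**Figure D5:**
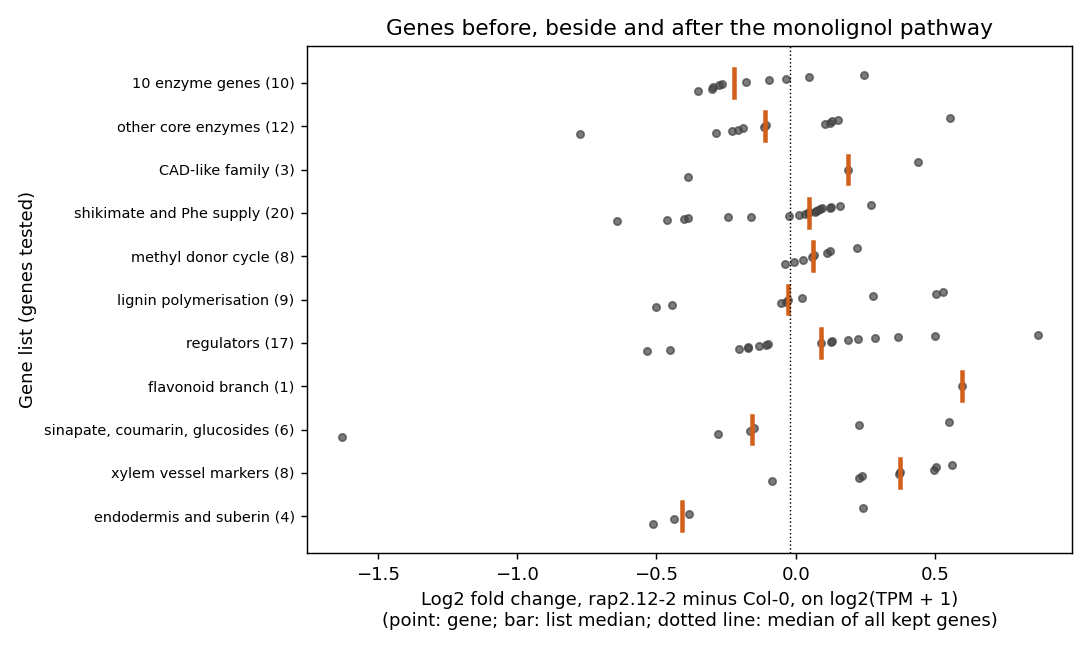
Log2 fold change, rap2.12-2 label against Col-0, of every tested gene (points) in 11 lists, with the list median as a bar and the median of all kept genes as a dotted line. The 10 enzyme genes lie between -0.35 and 0.24, the xylem vessel markers mostly to the right of 0, and the lowest point, at -1.63, is F6'H1.

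The flavonoid branch was mostly silent, while the sinapate, coumarin and monolignol glucoside branches were mixed. Of 11 flavonoid genes only TT5, the chalcone isomerase gene, passed the filter, at 1.23 ± 0.211 and 2.37 ± 0.182 TPM (SD, n = 3 each, limma adjusted p = 0.72). TT4, the chalcone synthase gene that opens the branch, was listed at or under 0.10 TPM in every library, and LDOX and PAP1 at 0. Of 13 genes of the sinapate, coumarin and glucoside branches 6 were tested and limma called 0, with 1 higher and 1 lower with unadjusted p under 0.05. F6'H1, the feruloyl-CoA hydroxylase that opens scopoletin synthesis, measured 36.0, 72.0 and 30.5 TPM across Col-0, and 5.87, 13.8 and 27.3 TPM across those labelled rap2.12-2. Its groups did not overlap, giving a log2 fold change of -1.63 (SE 0.49, limma adjusted p = 0.47). UGT72E2, which glucosylates monolignols, measured 17.1, 28.1 and 22.5 TPM and then 33.5, 34.1 and 30.9 TPM, again without overlap (log2 fold change 0.55, SE 0.20, limma adjusted p = 0.59). UGT72E1, a relative, measured 15.8 and 18.6 TPM, and COSY, the coumarin synthase gene, 60.9 and 54.4 TPM. The malate sinapoyltransferase gene SNG1 was listed at or under 0.07 TPM. In the same list of 13, S8H stayed at or under 0.12 TPM and UGT84A2 was at 3.64 to 6.85 TPM.

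Related dehydrogenases and the markers of callus identity close the comparison. Of 7 CAD-like genes 3 passed the filter and limma called 0, with 0 reaching an unadjusted p under 0.05. CAD1 stood at 54.6 TPM for Col-0 against 41.8 TPM for the other genotype, CAD9 at 15.5 against 19.7 TPM and CAD6 at 4.64 against 5.07 TPM, and CAD2 and CAD3 were listed at 0. Of 8 tested callus and root-founder markers limma called 0, and WOX11, a homeobox gene of root founder cells, was the 1 whose unadjusted p was under 0.05. It stood at 193, 171 and 196 TPM for Col-0 against 73.4, 103 and 130.4 TPM for the other genotype, without overlap (log2 fold change -0.90, limma adjusted p = 0.32). With the block, chosen after the data were seen, WOX11 was called at -0.97 (limma adjusted p = 0.0073). That fit called 4.57% of kept genes. SHR and LBD18 had log2 fold changes of -0.15 and -0.19.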

How the data were processed

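The authors deposited TPM values for 31305 loci in 6 libraries, prepared from total RNA per the labels. STAR 2.7.10a, RSEM 1.3.1 and TAIR10 appear in the submitters' processing notes with no role stated. TPM keeps no depth, and a few abundant transcripts lower all other values. Coordinates, symbols and sequence come from RefSeq TAIR10.1, which matched 31217 loci. Of 136 listed loci, 126 carry the listed name there.

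Members, lists and tests were chosen with earlier results of these data known. Log2(TPM + 1) of the 18629 genes averaging 1 TPM or more was compared with limma 3.58.1 (R 4.3.3, mean-variance trend, Benjamini-Hochberg adjustment over all kept genes, threshold 0.05). Fold changes on this scale understate those of low genes. Shares were compared by exact two-sided permutation. Named genes were the 10 members, 13 further core enzymes, RAP2.12, the most abundant member and the 3 of smallest p of each further list, and the 5 nearest profiles to C4H. MYB15, ADT4, ADT5, PLT1, WOX5, LBD29, SND1, CASP1, CAD2, CAD3, TT4, LDOX, PAP1, SNG1, S8H and UGT84A2 were named outside this rule, after their values were seen. Sequence was compared with BLAST 2.17.0 and Biopython 1.88. Alternatives were other pseudocounts, filters, scalings and variance priors, a replicate block and libraries left out.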

Additional observations from a re-analysis of the deposited data

How the results depend on the processing

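The 10 enzyme genes gave 0 calls under every alternative but the block for detected genes (1). At an unadjusted limma p under 0.05 their count moved from 0 to 1 with median-of-ratios, quantile or nuclear protein-coding scaling. Over all genes, 799 higher and 915 lower of 18618, 922 and 901 of 18629, and 492 and 1247 of 18205 reached that p under these scalings. The count was also 1 without Col-0 replicate 1, where 321 genes higher and 604 lower of 18642 reached that p. It was 1 again without both replicates 1, where 505 higher and 736 lower of 18666 did. With the block it was 3, where 898 genes higher and 2599 lower of 18629 reached that p. Over all genes, calls were 8 higher and 5 lower, and 3 and 3 with no filter, 3 higher with median-of-ratios scaling, 2 and 3 with no mean-variance trend, 0 and 0 without both replicates 1 and 187 and 665 with the block for detected genes. With libraries left out they ranged from 2 to 23 higher and from 2 to 9 lower. A replicate block gave 2 and 2 and ended the RAP2.12 call (limma adjusted p = 0.062), and changed no other call among the named genes. The RAP2.12 call also ended with no filter, with no mean-variance trend and without both replicates 1. Same-numbered libraries deviated from their group means with correlations of 0.20, 0.35 and -0.11, and libraries of unlike number with -0.34 to 0.23. With 3 libraries in each group, these values cannot decide whether the numbers pair the libraries.

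Changes near 0 turned sign. With libraries left out, log2 fold changes ranged from -0.20 to 0.42 for PAL2, -0.15 to 0.055 for C4H, -0.50 to 0.020 for 4CL2, -0.13 to 0.38 for 4CL5, -0.23 to 0.11 for ATR1, -0.35 to 0.099 for ATR2, -0.21 to 0.42 for CAD6, -0.41 to 0.032 for DHS3, -0.13 to 0.13 for HOG1, -0.012 to 0.21 for SAM2, -0.00095 to 0.18 for ADK2, -0.16 to 0.046 for PRX17, -0.096 to 0.26 for KFB01 and -0.32 to 0.041 for LBD18. The 4CL1 share difference ranged from -3.86 to 1.54 percentage points, and was 0.356 with minor 4CL genes left out. PAL2 was -0.035 on rescaling to nuclear protein-coding genes, -0.095 without both replicates 1 and -0.19 with the block for detected genes, where 4CL5 was -0.067. Without both replicates 1, CSE was -0.059, CAD6 -0.098, KFB01 -0.16 and HOG1 0.0016. HOG1 was 0.012 with median-of-ratios and SAM2 -0.038 with quantile scaling. The cause was not tested. As TPM holds no depth, counting error could not be given.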

Other observations

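Fitted with a block for the 3 libraries with most and the 3 with fewest loci above 0, a split chosen after the data were seen, a few further genes round the pathway were called. Of 20 genes of the shikimate and phenylalanine route, 2 were called lower in the libraries labelled rap2.12-2, namely ADT4 and ADT5, described above. ADT5 measured 32.8, 89.7 and 34.4 TPM for Col-0 against 13.7, 47.8 and 38.7 TPM for the other genotype, and ADT4 measured 112, 170.2 and 112 TPM against 52.3, 109 and 142 TPM. F6'H1, of coumarin synthesis, was also called, at a log2 fold change of -2.07 (limma adjusted p = 2.3e-05). In the same fit 4.57% of kept genes were called, 187 higher and 665 lower.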
